A study of Mus musculus with 8 samples.

Results

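Notch signalling was read here through 10 genes in RNA-seq of whole mouse neuroblastomas: the 4 receptors (Notch1, Notch2, Notch3 and Notch4), 4 ligands (Jag1, Jag2, Dll1 and Dll3) and 2 target genes (Hes1 and Hey1). They were chosen by name, and all 10 were found among the 17488 listed genes and among the 16157 that passed the filter for testing. The tested tumours came from 4 mice homozygous for TH-MYCN that received 2 doses of panobinostat at 5 mg/kg, 24 h apart, and the comparison tumours from 4 mice of the same genotype that received vehicle on the same schedule. Tumours were collected 4 h after the second dose, with 1 library per animal. TH-MYCN is a transgene that expresses human MYCN under the tyrosine hydroxylase promoter, so it acts in sympathoadrenal cells. All 8 animals carried it, dosing began at about 6 weeks of age with tumours of 200 to 300 mm3, and the labels give no sex. Panobinostat is a hydroxamate inhibitor of the zinc-dependent histone deacetylases. The comparison asks how transcript levels in these tumours differed after about a day of deacetylase inhibition.

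Notch receptors are single-pass membrane proteins that bind Delta-like and Jagged ligands on a neighbouring cell. Ligand binding exposes the receptor to ADAM proteases and then to gamma-secretase, which frees the intracellular domain. This fragment enters the nucleus, joins the DNA-binding protein RBPJ and a Mastermind coactivator, and turns on genes such as Hes1 and Hey1, whose products are repressors of the basic helix-loop-helix class. In the developing nervous system HES proteins hold back proneural factors, and in vessels NOTCH4 and DLL4 are known from endothelial cells and NOTCH3 from the mural cells around them.

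The libraries held 18664066 to 22235545 reads over listed genes with panobinostat and 22055658 to 23830026 with vehicle, and 1 CPM (counts scaled to effective library size) equalled 19.3 to 22.6 reads. Members ranged from 40 reads (Dll3) to 3909 reads (Notch3) in a library. The tissue was a mixture, and levels of cell type markers differed between the groups. Among all tested genes 31.2% rose and 32.4% fell (limma, adjusted p under 0.05). All 10 sympathoadrenal markers were detected in every library, but 7 of 10 fell, with sums of 978 to 1043 CPM in panobinostat libraries and 2548 to 3624 CPM in vehicle libraries. Fibroblast markers rose in 9 of 10 cases (summed level 7932 to 14110 CPM with panobinostat, 1397 to 4512 CPM with vehicle), macrophage markers in 9 of 10 (1615 to 2761 CPM, against 350 to 691 CPM with vehicle) and mural markers in 7 of 10 (1067 to 2508 CPM, against 477 to 847 CPM with vehicle). Endothelial markers rose in 2 of 12 cases, and their sums overlapped (387 to 627 CPM with panobinostat, 135 to 660 CPM with vehicle). The count for endothelial markers was 1 without any one of the 4 panobinostat libraries or vehicle libraries 3 and 4, and 5 without vehicle library 1. Markers of neighbouring organs were high in some panobinostat libraries: adrenal cortex in 1, 3 and 4 (722 to 2756 CPM), pancreas in 2 and 4 (714 and 4314 CPM), liver in 3 and 4 (913 and 8766 CPM, with 148 and 152 CPM in 1 and 2 and 7.13 to 60.9 CPM with vehicle) and kidney in 3 (769 CPM). The part of these other cells in the results below was not tested, and fewer cells of a type and less RNA per cell cannot be told apart in such samples.

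Panobinostat-treated tumours held more transcripts of Notch1, Notch2, Notch3, Jag1, Hes1 and Hey1 than vehicle-treated tumours, and fewer of Notch4 and Jag2. Notch1 was 4.33 times and Notch2 4.06 times as high, whereas Notch4 was at 0.391 times and Jag2 at 0.450 times the vehicle level. No call was made for Dll1 and Dll3. In all, 6 members rose and 2 fell at a Benjamini-Hochberg adjusted p under 0.05 (limma, n = 4 per group), in a comparison where 63.7% of all tested genes passed this threshold, 31.2% as higher and 32.4% as lower. The libraries of the groups did not overlap for 7 members, against 59.7% of all tested genes, and 6 members passed a test against a 1.5-fold change, against 30.9% of all tested genes. The median log2 change was 1.13 over the 10 members and -0.02 over all tested genes. With each library centred on its median the split was 5 higher and 3 lower. The plot of values by library shows all 10 genes.

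**Figure D1:**
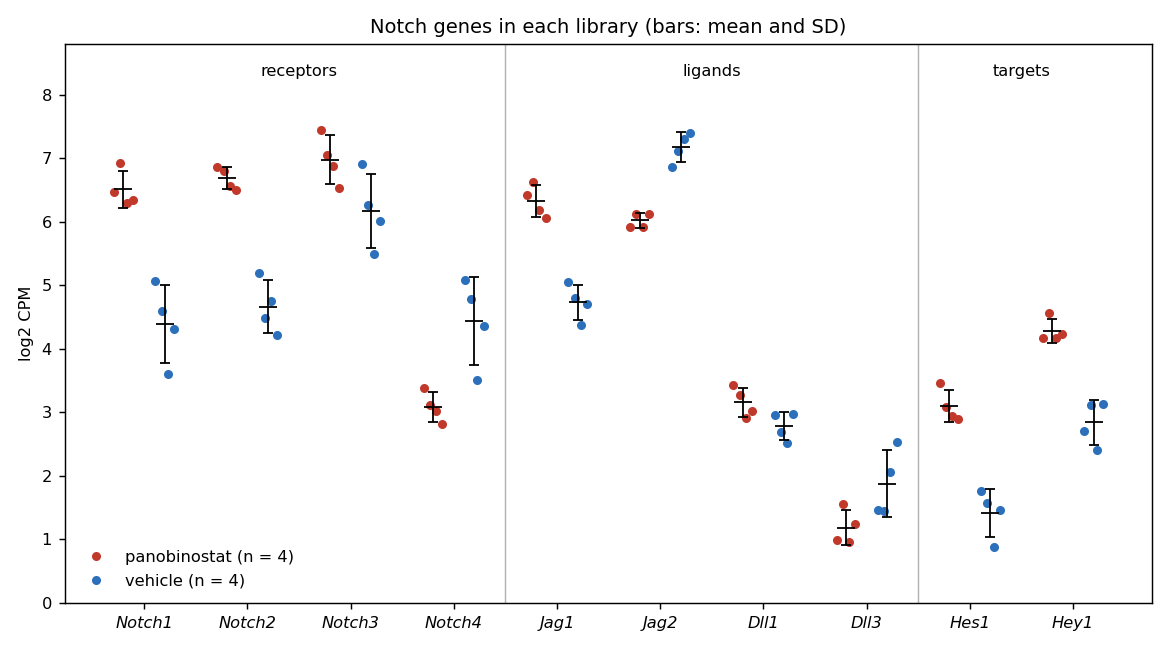
Each point is 1 library (4 panobinostat in red, 4 vehicle in blue), the vertical axis is log2 CPM, and bars give the mean and SD. The groups do not overlap for Notch1, Notch2, Notch4, Jag1, Jag2, Hes1 and Hey1, and they overlap for Notch3, Dll1 and Dll3.

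Among the receptors, Notch1 (ENSMUSG00000026923, chromosome 2, 26457903 to 26516663, minus strand, mm10), a receptor used by vessels, immune cells and neural progenitors, had 6.47, 6.93, 6.29 and 6.34 log2 CPM in the 4 panobinostat libraries, against 5.07, 4.60, 3.61 and 4.31 log2 CPM in the 4 vehicle libraries. Each panobinostat library was above each vehicle library, and the vehicle libraries were spread more widely. The log2 change was 2.11 (SE 0.28, adjusted p = 1.88e-04, limma). In the annotation 414 and 1068 of its exon bases also lie in genes on the opposite strand. Since the use of strand in counting is not given in the sources used here, their reads cannot be told apart from those of Notch1. The same holds for 541 exon bases of Notch2, shared with a gene on its own strand, and for 488 of Notch3, shared with a gene on the opposite strand.

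Notch2 (ENSMUSG00000027878, chromosome 3, 98013527 to 98150361, plus strand), which is known from macrophages, B cells and mesenchymal cells, had 6.86, 6.80, 6.56 and 6.51 log2 CPM with panobinostat, against 5.20, 4.49, 4.75 and 4.21 log2 CPM with vehicle. The log2 change was 2.02 (SE 0.20, adjusted p = 3.25e-05, limma), the smallest p among the members. The groups were separated by more than 1 log2 unit. A different change of Notch1 and Notch2 was not shown. The within-library difference of Notch1 minus Notch2 on the log2 scale was -0.17 ± 0.22 with panobinostat and -0.27 ± 0.59 with vehicle (SD, n = 4 each), a shift of 0.09 between the groups (exact permutation test, two-sided, adjusted p = 0.886).

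Notch3 (ENSMUSG00000038146, chromosome 17, 32120820 to 32166852, minus strand), the receptor of vascular mural cells, had 7.45, 7.05, 6.88 and 6.54 log2 CPM with panobinostat, against 6.90, 6.27, 5.50 and 6.02 log2 CPM with vehicle. Vehicle library 1 lay above panobinostat libraries 3 and 4, so the groups overlapped. The log2 change was 0.81 (SE 0.29, adjusted p = 0.0337, limma). This call was the least secure of the 8. It was lost without any one of panobinostat libraries 1, 2 and 3 and vehicle libraries 2, 3 and 4 (log2 change 0.59 to 0.84, adjusted p = 0.0552 to 0.0891, limma) and with median centring (0.69, adjusted p = 0.0512).

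Notch4 (ENSMUSG00000015468, chromosome 17, 34564268 to 34588503, plus strand), a receptor known chiefly from endothelial cells, was the receptor that fell. It had 3.39, 3.11, 3.02 and 2.81 log2 CPM with panobinostat, against 5.09, 4.78, 3.51 and 4.37 log2 CPM with vehicle. The groups were separated, with vehicle library 3 just above panobinostat library 1. The log2 change was -1.36 (SE 0.32, adjusted p = 0.00437, limma), and it did not pass a test against a 1.5-fold change (adjusted p = 0.0573).

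Endothelial markers ranked vehicle libraries 1 and 3 in the same places. Vehicle library 3, the lowest vehicle library for Notch4, also had the lowest endothelial sum (135 CPM), and vehicle library 1, the highest for Notch4, had the highest (660 CPM). Set against the reads of the 12 endothelial markers, a ratio chosen after the values were seen, Notch4 had 16.7, 17.2, 18.1 and 18.0 reads per 1000 marker reads with panobinostat, against 51.6, 59.4, 84.2 and 74.5 with vehicle. Dll4, the Delta-like ligand of tip and arterial endothelial cells, had 19.1 to 22.1 reads per 1000 marker reads with panobinostat and 25.7 to 50.6 with vehicle. Neither ratio overlapped between the groups, although the markers themselves differ from each other in how they changed. Robo4 was at -0.80 (SE 0.51) and Erg at -0.03 (SE 0.42), both without a call, while Tek (1.22, SE 0.45) and Flt1 (0.75, SE 0.22), receptor genes of endothelial cells, rose. Robo4 and Erg were named after their values were seen.

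**Figure D2:**
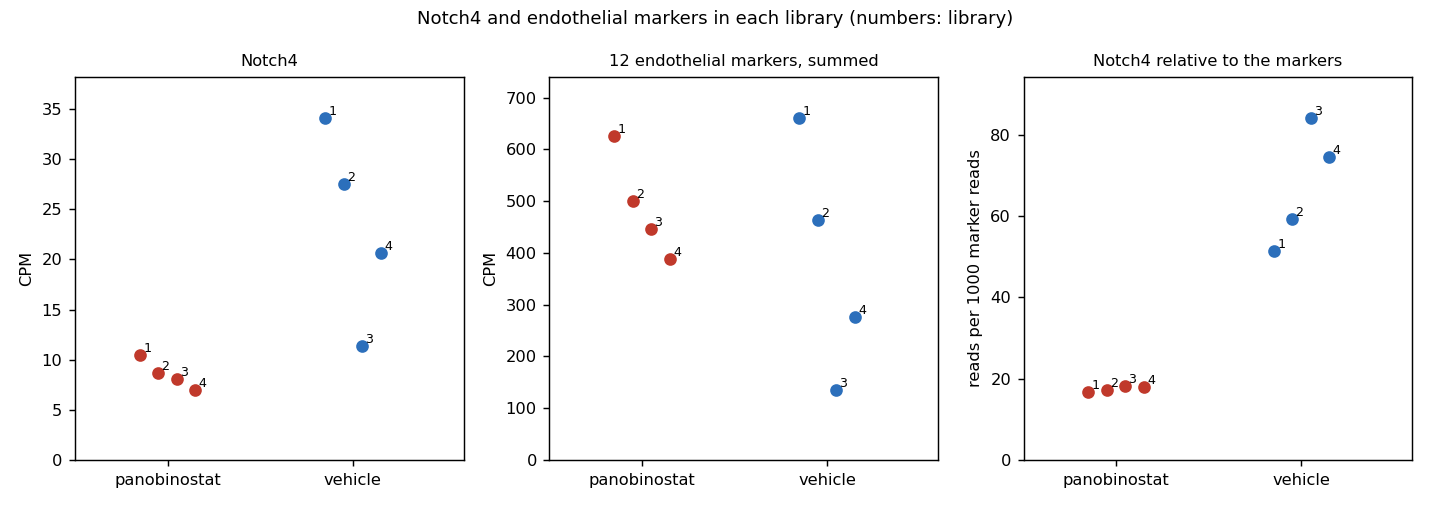
Points are libraries, numbered 1 to 4 within panobinostat (red) and vehicle (blue). From left, the vertical axes are CPM of Notch4, summed CPM of 12 endothelial markers, and Notch4 reads per 1000 reads of those markers. The marker sums overlap between the groups, whereas the ratio is 16.7 to 18.1 with panobinostat and 51.6 to 84.2 with vehicle.

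Notch1, Notch2 and Notch3 were set against marker reads in the same way. Notch3 had 69.8 to 87.2 reads per 1000 mural marker reads with panobinostat and 90.9 to 144 with vehicle. It was thus lower relative to the sum of these markers in every panobinostat library, although its own level rose. The mural markers changed unequally: of 10, 7 rose, among them Rgs5 (1.80, SE 0.26), and 3 made no call, among them Kcnj8 (-0.63, SE 0.57). Kcnj8 was named after its value was seen. Notch1 had 33.1 to 50.3 reads per 1000 macrophage marker reads in panobinostat libraries and 34.7 to 63.5 in vehicle libraries, with overlap. Notch2 had 40.0 to 60.6 in panobinostat libraries and 50.1 to 76.6 in vehicle libraries, also with overlap. Relative to fibroblast markers the groups also overlapped for Notch1 (6.30 to 10.2 with panobinostat, 7.42 to 14.2 with vehicle) and for Notch2 (8.08 to 11.5 with panobinostat, 8.13 to 17.8 with vehicle). An overlap with 4 libraries per group does not show that Notch1 or Notch2 changed in proportion to these marker reads. The part of macrophages and fibroblasts in the higher levels was not tested. Relative to endothelial markers Notch1 did differ, with 142 to 243 reads per 1000 in panobinostat libraries and 50.7 to 90.1 in vehicle libraries.

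Compared per length, as CPM per kilobase of exon, Notch3 was the highest receptor in all 8 libraries, with 16.0 ± 4.26 in panobinostat and 9.47 ± 3.89 in vehicle tumours (mean ± SD, n = 4). In panobinostat tumours Notch2 (9.59 ± 1.16), Notch1 (6.50 ± 1.41) and Notch4 (1.06 ± 0.18) followed, in the same order in each library. By the length of the longest transcript instead of all exons, Notch1 (12.9) was above Notch2 (10.6) in panobinostat library 2. In vehicle tumours Notch4 (2.90 ± 1.21), Notch2 (2.42 ± 0.73) and Notch1 (1.58 ± 0.63) followed. Notch4 was above Notch1 in all 4 vehicle libraries by either length. The place of Notch2 varied, and in vehicle library 3 it was at 2.49, with Notch4 at 1.41. Summed over the 4 receptors the level was 26.5 to 40.0 CPM per kilobase with panobinostat and 10.4 to 24.8 with vehicle.

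The makeup of the receptor pool differed accordingly. Notch4 gave 2.94% to 3.36% of the per-length sum in panobinostat libraries and 13.6% to 20.4% in vehicle libraries. Notch2 gave 27.0% to 31.8% with panobinostat, against 12.5% to 24.1% with vehicle, and Notch1 15.6% to 23.6% with panobinostat, against 8.25% to 10.2% with vehicle. Notch3 remained the largest part, at 47.8 ± 4.78% with panobinostat and 57.3 ± 2.43% with vehicle. The change of Notch4 differed from that of each other receptor, with log2 differences of 3.47 for Notch1 minus Notch4, 3.38 for Notch2 minus Notch4 and 2.17 for Notch3 minus Notch4. Notch1 and Notch2 also rose more than Notch3 (by 1.30 and 1.21 on the log2 scale). Each of these 5 contrasts had an exact permutation p of 0.0286, the smallest that 70 assignments allow, and an adjusted p of 0.0371 over the 13 pairs compared. A scaling of whole libraries cancels in such within-library differences.

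**Figure D3:**
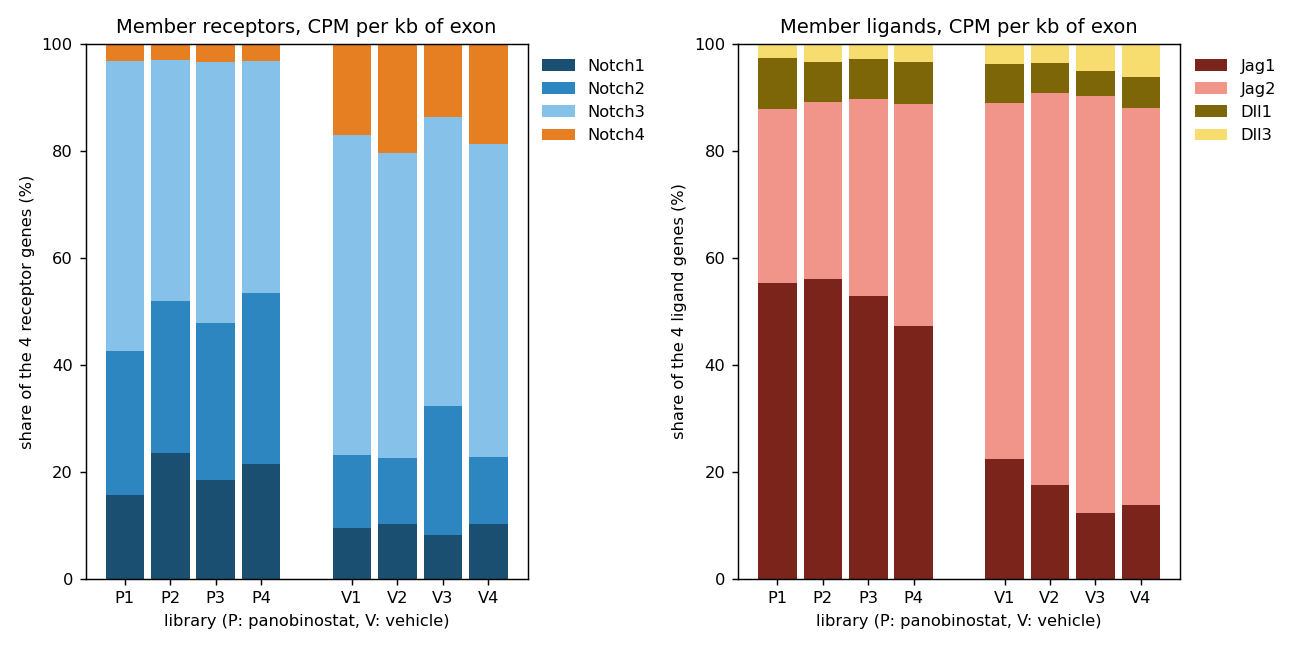
Each bar is 1 library (P1 to P4 panobinostat, V1 to V4 vehicle), and colours give the share in percent of the summed CPM per kilobase of exon over the 4 receptor genes (left) or the 4 ligand genes (right). Notch4 takes 2.94% to 3.36% with panobinostat and 13.6% to 20.4% with vehicle, and Jag1 takes 47.3% to 56.0% with panobinostat and 12.2% to 22.5% with vehicle.

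The Jagged ligands moved in opposite directions. Jag1 (ENSMUSG00000027276, chromosome 2, 137081456 to 137116644, minus strand), a ligand of vessels and many epithelia, had 6.43, 6.62, 6.19 and 6.06 log2 CPM with panobinostat, against 5.05, 4.80, 4.37 and 4.71 log2 CPM with vehicle, a log2 change of 1.59 (SE 0.17, adjusted p = 5.00e-05, limma). Jag2 (ENSMUSG00000002799, chromosome 12, 112907819 to 112929776, minus strand), its paralogue, had 5.92, 6.12, 5.92 and 6.13 log2 CPM with panobinostat, against 6.87, 7.12, 7.31 and 7.40 log2 CPM with vehicle, a log2 change of -1.15 (SE 0.13, adjusted p = 5.92e-05, limma). Neither gene's groups overlapped.

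Per length, Jag2 exceeded Jag1 in all 4 vehicle tumours, and Jag1 exceeded Jag2 in all 4 panobinostat tumours. By the longest transcript, Jag1 (11.9) was below Jag2 (13.7) in panobinostat library 4. Jag1 reached 13.9 ± 2.43 CPM per kilobase with panobinostat, against 4.62 ± 0.87 with vehicle, and Jag2 reached 9.36 ± 0.76 with panobinostat, against 20.9 ± 3.30 with vehicle (mean ± SD, n = 4). The share of Jag1 in the ligand sum was 52.9 ± 3.95% with panobinostat and 16.5 ± 4.58% with vehicle. The sum itself overlapped, at 23.7 to 30.2 CPM per kilobase with panobinostat and 25.3 to 32.6 with vehicle. The log2 difference Jag1 minus Jag2 differed by 2.75 between the groups, a 6.70-fold shift of their ratio (exact permutation p = 0.0286, adjusted p = 0.0371).

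Marker reads bear on these ligands too. Jag2 had 60.9 to 69.2 reads per 1000 sympathoadrenal marker reads with panobinostat and 44.1 to 52.9 with vehicle, so relative to those markers it was higher, not lower, in each panobinostat library. For Jag1 the ratio to endothelial markers was 138 to 197 per 1000 with panobinostat and 50.1 to 154 with vehicle, with overlap through vehicle library 3.

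Of the Delta-like members, Dll1 (ENSMUSG00000014773, chromosome 17, 15367354 to 15376872, minus strand), an activating ligand, had 239, 186, 157 and 158 reads with panobinostat, against 176, 131, 129 and 166 reads with vehicle. The groups overlapped and the log2 change was 0.37 (95% interval -0.06 to 0.79, adjusted p = 0.115, limma). It passed with libraries scaled to read totals (0.49, adjusted p = 0.0414) and was below 0 with quantile normalization (-0.14). In the annotation 867 of its exon bases lie in the noncoding gene A930024N18Rik on the opposite strand, which had 7 to 16 reads in panobinostat and 20 to 35 in vehicle libraries.

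Dll3 (ENSMUSG00000003436, chromosome 7, 28293553 to 28302238, minus strand), a divergent Delta-like protein of neuroendocrine cells that is held mostly inside the cell, had 44, 56, 40 and 46 reads with panobinostat, against 62, 55, 94 and 122 reads with vehicle. Panobinostat library 2 reached the level of the lower vehicle libraries. The log2 change of -0.69 (95% interval -1.37 to -0.02) had an adjusted p of 0.0681 (limma). It passed the threshold without vehicle library 1 (-0.83, adjusted p = 0.0423) or 2 (-0.84, adjusted p = 0.0468), with median centring (-0.81, adjusted p = 0.0403) and with quantile normalization (-1.29, adjusted p = 0.00842). The log2 difference Dll1 minus Dll3 was 1.06 higher with panobinostat (exact permutation p = 0.0286, adjusted p = 0.0371). Jag2 minus Dll3 shifted by -0.46 (exact permutation p = 0.114, adjusted p = 0.135), and by -0.62 on the log2(CPM + 1) scale, where it passed (exact permutation adjusted p = 0.0338).

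Both target genes rose. Hes1 (ENSMUSG00000022528, chromosome 16, 30064384 to 30067796, plus strand), a repressor that oscillates in neural progenitors, had 246, 164, 160 and 146 reads with panobinostat, against 76, 60, 41 and 58 reads with vehicle. The lowest panobinostat library was well above the highest vehicle library. The log2 change was 1.68 (SE 0.24, adjusted p = 2.84e-04, limma).

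Hey1 (ENSMUSG00000040289, chromosome 3, 8663359 to 8667256, minus strand), a related repressor known from the endothelium and heart, had 400, 457, 378 and 368 reads with panobinostat, against 148, 176, 119 and 186 reads with vehicle, also without overlap. The log2 change was 1.44 (SE 0.20, adjusted p = 2.27e-04, limma). Per kilobase of exon Hey1 was above Hes1 in all 8 libraries, at 6.00 ± 0.84 and 4.25 ± 0.81 CPM with panobinostat and at 2.24 ± 0.52 and 1.33 ± 0.32 CPM with vehicle. By the longest transcript Hes1 (7.52) was just above Hey1 (7.40) in panobinostat library 1. Their changes were not distinguished (difference 0.24, exact permutation p = 0.371, adjusted p = 0.402). Against endothelial marker reads Hes1 did not overlap, with 17 to 19.2 reads per 1000 in panobinostat and 5.08 to 13.5 in vehicle libraries, while Hey1 did (28.6 to 48.4 with panobinostat, 9.90 to 39.1 with vehicle). Against fibroblast marker reads both overlapped: Hes1 had 0.639 to 0.938 with panobinostat and 0.744 to 1.96 with vehicle, and Hey1 had 1.27 to 2.36 with panobinostat and 1.45 to 6.29 with vehicle.

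Other genes of the HES and HEY families and genes often reported to respond to Notch followed the same pattern in all but 1 case. Of 13 on the list 10 were tested, 9 rose and 1 fell, with a median log2 change of 1.39, in a comparison where 31.2% of all tested genes rose. Hey2, the closest relative of Hey1, had 192, 408, 188 and 160 reads with panobinostat, against 76, 26, 36 and 49 with vehicle, and rose by 2.42 (SE 0.39). Heyl, a HEY gene of mural cells, rose by 1.49 (SE 0.24), and Nrarp, a feedback inhibitor of the Notch complex, by 1.36 (SE 0.23). The segmentation clock gene Hes7 rested on 41 to 71 reads in panobinostat libraries and 14 to 27 in vehicle libraries and rose by 1.42 (SE 0.30).

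The inhibitors of differentiation Id1 (1.28, SE 0.29), Id2 (1.24, SE 0.17), Id3 (1.51, SE 0.29) and Id4 (1.74, SE 0.53) rose, as did Bhlhe40 (0.92, SE 0.21), a repressor of the same structural class. Id genes also respond to BMP signalling. Id4 had 20 to 38 reads in panobinostat libraries, against 5 to 28 in vehicle libraries, with overlap, and made no call with quantile normalization (0.86, adjusted p = 0.115, limma). Hes6, which promotes neuronal differentiation and opposes HES1, was the gene that fell, by 0.74 on the log2 scale (SE 0.19). Hes5 stayed under the filter, with 9 to 32 reads in panobinostat and 12 to 20 in vehicle libraries, and Hes2 and Hes3 were not analysed here. Heyl had 21.0 to 38.7 reads per 1000 mural marker reads with panobinostat and 12.9 to 48.9 with vehicle, which overlap. Relative to those markers Heyl thus showed no separation, unlike its own level.

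The letters of some of these promoters are shown because their genes moved together or are textbook targets of RBPJ. RefSeq promoter windows (GRCm38.p6, 250 bases before to 50 after the start) matched 17 of 24 genes looked for, in 19 windows, and Hes1, Hey1, Heyl, Bhlhe40, Id1, Hes2 and Hes3 were not among them. The RBPJ core TGGGAA, searched on both strands, was in 4 of the 19 windows (Hes5, Hes7, Hey2 and Id4) and in 25.6% of 32851 windows of all genes. None of the receptor and ligand windows held it. The E-box-like class C site CACGNG was in 10 of 19 windows and in 27.5% of all, and the N box CACNAG, a HES-bound motif, in 10 of 19 and in 42.5% of all. A class C site of the form CACGTG reads the same on both strands. GC content in the 19 windows ran from 52.0% (Dll3) to 86.0% (Jag2). The shares over all windows were not matched for GC content, so no excess of a motif is shown. An N box and a class C site begin at the same base in Hes7 (-116) and in Notch3 (-204). The windows below run 5′ to 3′ along each gene's strand, with each RBPJ core or its complement in capitals.
Hey2, chr10:30842734-30843033, minus strand: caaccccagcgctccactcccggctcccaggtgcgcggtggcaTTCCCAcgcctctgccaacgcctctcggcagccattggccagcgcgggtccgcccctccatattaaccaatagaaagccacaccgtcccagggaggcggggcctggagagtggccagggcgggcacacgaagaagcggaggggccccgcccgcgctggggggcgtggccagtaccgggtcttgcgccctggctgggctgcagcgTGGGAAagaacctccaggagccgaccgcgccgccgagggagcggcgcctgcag
Hes7, chr11:69120203-69120502, plus strand: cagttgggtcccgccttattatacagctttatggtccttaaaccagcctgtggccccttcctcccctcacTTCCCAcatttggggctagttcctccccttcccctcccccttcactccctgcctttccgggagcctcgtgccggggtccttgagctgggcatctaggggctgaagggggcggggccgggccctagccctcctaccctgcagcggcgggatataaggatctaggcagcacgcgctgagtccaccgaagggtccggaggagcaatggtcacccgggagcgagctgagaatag
Hes5, chr4:154960673-154960972, plus strand: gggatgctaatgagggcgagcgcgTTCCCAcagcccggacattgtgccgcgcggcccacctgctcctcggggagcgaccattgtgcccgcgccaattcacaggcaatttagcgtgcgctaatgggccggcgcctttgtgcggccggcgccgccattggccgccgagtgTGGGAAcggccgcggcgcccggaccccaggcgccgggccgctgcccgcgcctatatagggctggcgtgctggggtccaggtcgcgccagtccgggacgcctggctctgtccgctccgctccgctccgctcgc
Nrarp, chr2:25180508-25180807, plus strand: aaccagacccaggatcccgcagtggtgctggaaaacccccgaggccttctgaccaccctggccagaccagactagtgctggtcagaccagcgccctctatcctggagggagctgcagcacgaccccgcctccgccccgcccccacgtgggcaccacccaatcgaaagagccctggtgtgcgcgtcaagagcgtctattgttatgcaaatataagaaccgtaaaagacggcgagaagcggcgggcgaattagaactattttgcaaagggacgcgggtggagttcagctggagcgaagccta

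In Hey2 the 2 cores began at -207 (reverse) and -3 (forward) from the start site, in Hes7 the core began at -180 (reverse), and in Hes5 the cores began at -226 (reverse) and -82 (forward). The Nrarp window held no core, although Nrarp rose, and the Hes5 window held 2 in a gene with too few reads to be tested. A match is a description of these letters only.

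Other genes of the pathway were read from lists ordered by role, and the plot of changes by role shows most of them. Among 10 genes of receptor cleavage 6 rose and 1 fell (2 fell with median centring), where 31.2% of all tested genes rose and 32.4% fell. Their median log2 change was 0.73, in libraries with more macrophage and fibroblast marker reads. Adam17, a protease that sheds membrane proteins, rose by 1.51 (SE 0.11), the gamma-secretase subunit gene Psen2 by 1.87 (SE 0.15) and the subunit gene Aph1b by 2.42 (SE 0.16). Aph1b has a close copy, Aph1c, which also rose (2.82, SE 0.29, named with its value in view), and reads of the pair may be shared. Ncstn, the nicastrin gene, fell by 0.45 (SE 0.09) and was named after its value was seen.

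**Figure D4:**
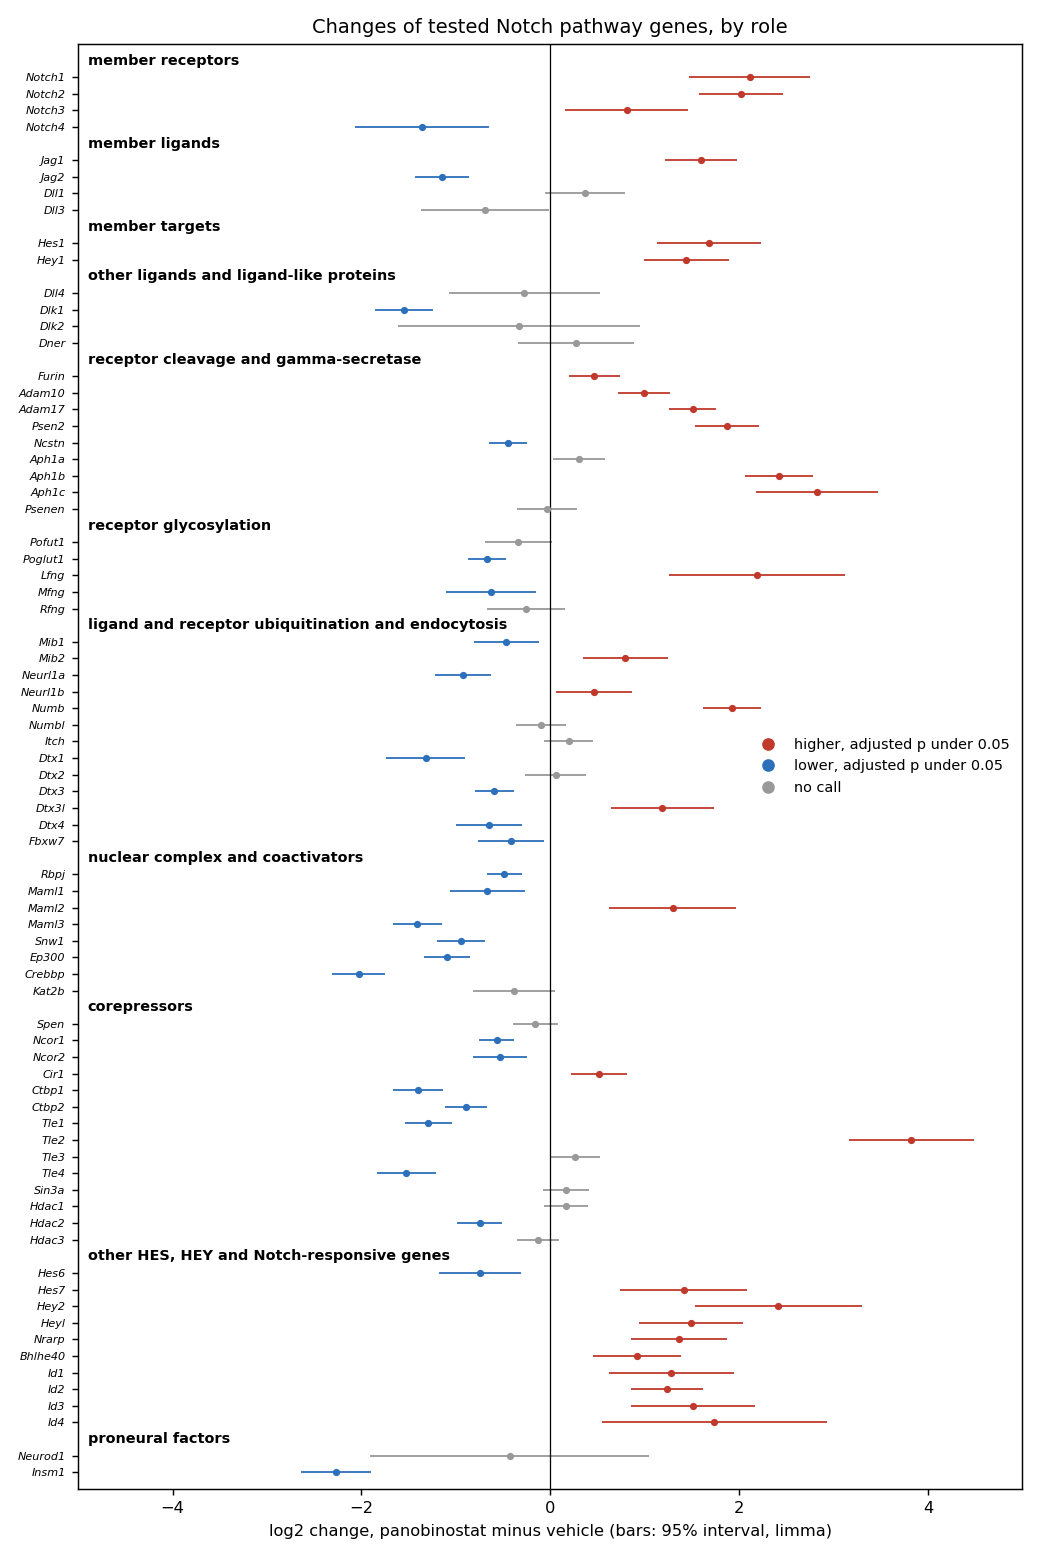
Points give the log2 change (panobinostat minus vehicle) of tested pathway genes and bars the 95% interval (limma, n = 4 per group), in red for higher, blue for lower and grey for no call, grouped by role. Of the 10 tested HES, HEY and Notch-responsive genes beside the members 9 lie above 0, and of 8 genes of the nuclear complex 6 are lower and 1 higher. Dll1 lies above 0 here and below 0 with quantile normalization. Some tested genes of these lists are not drawn.

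Receptor glycosylation genes were divided, with 1 of 5 higher and 2 lower, where 31.2% of all tested genes were higher and 32.4% lower. Lfng, the lunatic fringe gene, whose enzyme changes which ligands a receptor answers to, rose by 2.19 (SE 0.41), with 368 to 555 reads in panobinostat libraries and 60 to 284 in vehicle libraries. Mfng, the manic fringe gene, fell by 0.63 (SE 0.21), and Poglut1, the O-glucosyltransferase gene of Notch repeats, fell by 0.67 (SE 0.09). The count of lower genes here was 1 without panobinostat library 2, 3 or 4.

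Of 13 genes of ubiquitination and endocytosis 4 rose and 6 fell (median -0.10), where 31.2% of all tested genes rose and 32.4% fell. Numb, the cell fate determinant that antagonises Notch, rose by 1.92 (SE 0.14). Dtx1, a Deltex gene and a Notch target in lymphocytes, fell by 1.32 (SE 0.19), and Neurl1a, a ligand ubiquitin ligase gene, fell by 0.93 (SE 0.13). Without panobinostat libraries 3 and 4 the counts were 3 higher and 3 lower.

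Of 8 genes of the nuclear complex 6 fell and 1 rose (median -0.81), where 32.4% of all tested genes fell. Maml3, a Mastermind coactivator gene, fell by 1.41 (SE 0.11), and the acetyltransferase genes Crebbp and Ep300 fell by 2.03 (SE 0.12) and 1.09 (SE 0.11). Rbpj itself fell by 0.49 (SE 0.08) and Maml2, another Mastermind gene, rose by 1.30 (SE 0.30). Both were named with their values in view. Among 14 corepressor genes 7 fell and 2 rose (median -0.35), where 32.4% of all tested genes fell and 31.2% rose. The count of higher genes was 4 with quantile normalization, 5 with scaling to read totals, and 1 without panobinostat libraries 3 and 4. Ctbp1 fell by 1.40 (SE 0.12) and Tle1, a Groucho corepressor gene, by 1.29 (SE 0.11), while its relative Tle2, with 309 to 514 reads in panobinostat and 15 to 36 in vehicle libraries, rose by 3.82 (SE 0.29).

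The remaining ligand-like genes had 1 call among 4, where 63.7% of all tested genes had a call. Dlk1, an imprinted gene that encodes a Delta-like protein without the receptor-binding domain, had 13407, 13476, 15330 and 15993 reads with panobinostat, against 41594, 40361, 46897 and 51996 reads with vehicle. It fell by 1.55 on the log2 scale (SE 0.14), with no overlap, and had more reads than any member in each library. Dner (0.27, SE 0.27) and Dll4 (-0.28, SE 0.36) made no call, although Dll4 passed without vehicle library 3 (-0.67, adjusted p = 0.0109, limma), its lowest vehicle library, so that 2 ligand-like genes were then lower.

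Proneural and neuroendocrine factors were read as well. HES proteins repress genes of this kind in neural progenitors, and their part in the changes below was not tested. Of 9 genes on the list, 4 were among the listed genes and 3 were tested. Insm1, a neuroendocrine zinc finger gene, had 806, 650, 655 and 691 reads with panobinostat, against 3284, 3516, 2883 and 4773 with vehicle, and fell by 2.27 (SE 0.16), with no overlap. Neurod1 made no call (-0.43, SE 0.66). Of 10 sympathoadrenal markers 7 fell in the same libraries, among them Tfap2b by 2.76 (SE 0.16), where 32.4% of all tested genes fell. The other 3 made no call: Gata2 (-0.85, SE 0.40), Th (0.18, SE 0.31) and Dbh (0.12, SE 0.44). Gata2, Th and Dbh were named with their values in view.

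The changes of the other marker genes named by the rule follow, and they do not measure numbers of cells. Rgs5 (1.80, SE 0.26) and Cspg4 (2.15, SE 0.17) of mural cells rose, as did Lum (3.68, SE 0.43) and Col1a2 (2.64, SE 0.36) of fibroblasts, and C1qa (2.52, SE 0.20) and Cd68 (2.25, SE 0.18) of macrophages. Schwann cell markers rose in 7 of 10 cases, among them S100b (3.39, SE 0.41), but their sums overlapped, at 209 to 556 CPM with panobinostat and 200 to 257 CPM with vehicle, and 2 rose without panobinostat libraries 3 and 4. All 8 adipocyte markers rose (1114 to 1699 CPM in sum, against 27.5 to 692 CPM with vehicle), among them Adipoq (4.08, SE 0.71) and Retn (3.62, SE 0.71), and 4 rose without those 2 libraries. Of 8 immediate early genes, which respond to tissue handling, 6 rose and 1 fell, with Fos at 1.83 (SE 0.20) and Junb at 1.67 (SE 0.19). Dusp1 was the gene that fell (-0.37, SE 0.12), and Jun made no call (-0.05, SE 0.20). Both were named with their values in view. Beside the counts in this paragraph, 31.2% of all tested genes rose and 32.4% fell. Without panobinostat libraries 3 and 4 the called members again numbered 6 higher and 2 lower. Over all genes 3328 were then called higher, against 5048 with all 8 libraries.

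Across all tested genes of at least median level, those with the closest profile over the 8 libraries were named by the root mean square difference of mean-centred log2 values. For Notch1 they were Col18a1 (0.16 log2 units) and Man2b1 (0.21), for Notch2 Ikbip (0.10) and Camk1 (0.13), for Notch3 Zfp36l2 (0.14) and Lamb1 (0.16), and for Notch4 Usp6nl (0.17) and Igfbp3 (0.18). Jag1 was closest to Lamc1 (0.11) and Peak1 (0.12), and Jag2 to Prrc2b (0.04) and Clasp1 (0.06). The closest to Dll1 were Slc41a1 (0.08) and Bcl9l (0.10), and to Dll3 Mmp15 (0.15) and Map6 (0.16). Hes1 was closest to Syngr2 (0.13) and Csrp1 (0.16), and Hey1 to Plbd2 (0.13) and Mknk2 (0.16). With 63.7% of genes differing between the groups, genes of like change are many, and closeness here carries no test.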

How the data were processed

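RNA sequencing of 8 whole TH-MYCN neuroblastomas was used, 4 with panobinostat and 4 with vehicle, 1 library per animal, grouped by the labels. The authors deposited 1 log2 value per gene and library. TopHat2, HTSeq, limma, CASAVA 1.8.2 and mm10 are named, without roles, in the submitters' processing notes. For the annotation, the filter, the normalization and the use of strand the answer is not given in the sources used here. Cohort, litter and date are not analysed here and cannot be told apart from treatment. The deposited log2 values behave as log2 CPM with 0.5 added to each count: dividing them back gave whole reads, to within 0.001 read, in 100% of cases. CPM and reads were computed from them with the authors' effective library size.

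A reference table gave symbols for 17228 of 17488 identifiers, and positions and exon lengths come from GENCODE M21 on the assembly of mm10. The 16157 genes that reached 1 CPM in 4 or more of the 8 libraries entered a limma fit (version 3.58.1, R 4.3.3; lmFit, eBayes with a variance trend, two-sided, Benjamini-Hochberg over all tested genes, threshold 0.05). Changes are panobinostat minus vehicle. Pairs of members were compared by two-sided exact permutation of within-library log2 differences. The fit was run on simulated counts with 200 changed genes. In the data 63.7% of tested genes were called, so the simulation does not check the fit at that share. Library totals limit precision for members under about 100 reads.

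Members, lists and tests were chosen with earlier results of these data known. Named genes were the members, the 3 genes of each other pathway list and 2 of each marker list with the smallest adjusted p, all tested HES, HEY and Notch-responsive genes, and the 2 closest profiles of each member. Some genes that this rule names are not reported here. Alternatives were other filters, variance models, weights, scalings, a pseudocount of 1 CPM, a threshold of 0.01, a test against a 1.5-fold change, and leaving out libraries.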

Additional observations from a re-analysis of the deposited data

Results flagged for a closer look

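In groups of 4 libraries, a value was set apart when its gap to the nearest other was over Dixon's critical share of the range. This was asked of 58 groups, and chance sets apart about 1 in 20. It held for 4. Panobinostat library 2 stood above the other 3 for both Hey1 (4.57 log2 CPM, others 4.17 to 4.23) and Hey2 (4.40 log2 CPM, others 3.03 to 3.17). Vehicle library 3 stood below the others for Dll4 (2.38 log2 CPM, others 3.81 to 4.09), and its share of Notch2 among the receptors was the highest (24.1%, others 12.5% to 13.7%). Vehicle library 3 also had the lowest endothelial marker sum (135 CPM), and the part of this in its values was not tested.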

How the results depend on the processing

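No paired analysis was possible because the labels give no replicate number shared between the groups. Notch1, Notch2, Jag1, Jag2, Hes1 and Hey1 kept direction and call under all 21 alternatives, with log2 changes of 1.85 to 2.34, 1.87 to 2.20, 1.48 to 1.79, -1.27 to -0.97, 1.09 to 1.86 and 1.08 to 1.56. The others kept theirs under 20 of 21 (Notch4), 12 of 21 (Notch3), 19 of 21 (Dll1) and 16 of 20 (Dll3, untested at the 5 CPM filter). Dll1 reversed to -0.14 with quantile normalization. Against a 1.5-fold change 5 members were higher and 1 lower, and over all genes 2802 were higher and 2186 lower, against 5048 and 5241 for no change. Without panobinostat libraries 3 and 4 together, 3328 genes were higher. Leaving out 1 library gave 5 to 6 members higher and 2 to 3 lower, and 4152 to 5101 genes higher and 4705 to 5266 lower. Scaling moved the median of all tested genes by -0.12 (quantile normalization, median centring) or 0.12 (read totals). With medians in place of means the smallest p that 70 assignments give is 0.0571, so by construction no pair could pass. The values were 1.38 (Notch1 minus Notch3), 3.45 (Notch1 minus Notch4), 1.46 (Notch2 minus Notch3), 3.64 (Notch2 minus Notch4), 2.17 (Notch3 minus Notch4), 2.89 (Jag1 minus Jag2), 1.19 (Jag1 minus Dll1), 2.33 (Jag1 minus Dll3), -1.5 (Jag2 minus Dll1) and 1.01 (Dll1 minus Dll3), with adjusted p = 0.0743 for each in this exact permutation test, and Notch1 minus Notch2 reversed to -0.20. With log2(CPM + 1) Jag2 minus Dll3 passed (-0.62, exact permutation adjusted p = 0.0338). By the longest transcript, shares were 26.5% with panobinostat and 13.0% with vehicle for Notch1, 26.8% for Notch2 with panobinostat, 52.8% for Notch3 with vehicle, 3.50% for Notch4 with panobinostat, and 47.0% for Jag1 and 41.9% for Jag2 with panobinostat. Low reads limit Dll3, Hes7 and Id4.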
